A study of Mus musculus with 49 samples.

Results

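Among 49 single cells of the mouse metanephric mesenchyme, the cells were divided by the level of 1 gene, Crabp1. Crabp1 encodes a cytosolic protein that binds retinoic acid. The 27 cells with Crabp1 at 10 RPKM or more (reads normalised for gene length and for the mapped total) are called Crabp1-high, and the 19 cells below 0.1 RPKM are called Crabp1-absent. The 3 cells in between were left out of the comparison and are described one by one. The members were thus chosen by the measured level of Crabp1, whose own difference is a description and supports nothing.

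Each library was made from 1 cell of mesenchyme dissected from Crym-EGFP transgenic embryos at 11.5 days post coitum, Theiler stage 19. Every cell, of either class, comes from the same transgenic line, Tg(Crym-EGFP)82Gsat on a mixed background with both sexes included, in which regulatory sequence of Crym drives the fluorescent reporter, and the labels name no drug or other agent. The dissection was guided by the fluorescence and took in some cells beyond its border. No embryo or litter is named for any cell, so all cells together are 1 group and 1 sample, no p-values were computed, and SDs and intervals describe these cells only.

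Retinoic acid is made from vitamin A by dehydrogenases, is held in the cytosol by binding proteins, and acts on gene transcription through nuclear receptors. In the embryonic kidney, the stroma around the nephron progenitors is a known source of retinoic acid, and Foxd1 is a transcription factor of the stromal progenitors. Six2 is the transcription factor that keeps nephron progenitors undifferentiated, and Crym, the gene of mu-crystallin, a protein that binds thyroid hormone, marks the labelled domain.

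The regions around the annotated starts of Crabp1, Foxd1 and Six2 are shown because the comparison turns on which of these genes a cell holds. They are RefSeq promoters of the mouse build GRCm38.p6, from 250 bases before to 50 bases after the start, written 5′ to 3′ on the strand of the gene. Capitals mark the GC box GGGCGG on either strand, the motif bound by Sp-family factors. Crabp1 lies at chr9:54764498-54764797 on the plus strand, Foxd1 at chr13:98353995-98354294 on the plus strand, and Six2 at chr17:85688205-85688504 on the minus strand.
Crabp1: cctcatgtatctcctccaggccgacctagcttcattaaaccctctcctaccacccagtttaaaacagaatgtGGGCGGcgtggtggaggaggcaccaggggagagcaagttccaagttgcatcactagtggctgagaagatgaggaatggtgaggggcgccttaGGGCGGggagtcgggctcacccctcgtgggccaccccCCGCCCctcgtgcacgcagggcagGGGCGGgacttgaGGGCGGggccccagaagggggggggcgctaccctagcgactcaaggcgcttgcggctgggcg
Foxd1: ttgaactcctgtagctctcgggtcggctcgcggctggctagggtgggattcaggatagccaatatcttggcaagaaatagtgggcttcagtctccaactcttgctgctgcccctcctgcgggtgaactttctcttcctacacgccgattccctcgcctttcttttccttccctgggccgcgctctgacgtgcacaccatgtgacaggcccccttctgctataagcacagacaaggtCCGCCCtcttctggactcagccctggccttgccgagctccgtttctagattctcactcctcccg
Six2: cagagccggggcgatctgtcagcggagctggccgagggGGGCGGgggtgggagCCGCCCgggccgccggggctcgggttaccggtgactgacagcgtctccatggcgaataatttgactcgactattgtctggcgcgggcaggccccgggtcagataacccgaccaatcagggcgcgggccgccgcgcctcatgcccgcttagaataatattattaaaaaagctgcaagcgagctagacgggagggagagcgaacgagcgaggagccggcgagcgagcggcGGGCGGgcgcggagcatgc
The Crabp1 window held 5 GC boxes, that of Six2 held 3 and that of Foxd1 held 1, and 35.7% of all 32851 RefSeq mouse promoters of 300 bases held at least 1. The motif AGGTCA, bound by nuclear receptors, and the TATA box letters TATAAA were searched on both strands and were in none of the 3 windows, while 16.3% and 13.6% of all promoters held them.

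Crabp1 (gene ID 12903; chromosome 9, 54612615 to 54620916 in the build mm9 of the deposited table) ranged from 15.9 to 875 RPKM in the Crabp1-high cells, with a median of 274 RPKM. In all 19 Crabp1-absent cells it was listed at 0. The cells just inside the threshold were cell 7 at 15.9 RPKM, cell 48 at 28.4 RPKM and cell 6 at 29.8 RPKM. Those just outside it were cell 14 at 6.68 RPKM, cell 51 at 1.16 RPKM and cell 13 at 0.482 RPKM. No cell thus lay between 6.68 and 15.9 RPKM. A listed 0 may also come from a transcript that escaped capture.

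The classes differed in general detection. A Crabp1-high cell had a median of 5670 genes at 1 RPKM or more (3862 to 6510) and a Crabp1-absent cell 4878 (3610 to 6138), and the ranges overlapped. Relative sequencing depth, read from the steps between low values, had medians of 0.974 and 1.03. The Crabp1-absent cell 3, at 0.0346, and the Crabp1-high cell 7, at 0.0462, were shallow. The Crabp1-high cell 25 had 12 of 13 ureteric bud genes at 1 RPKM or more, and the Crabp1-absent cell 27 had all 8 endothelial genes. The file headers give 1 run and lane for all cells, and each of the 5 index sets held both classes, with 6, 7, 5, 2 and 7 Crabp1-high cells beside 3, 3, 4, 6 and 3 Crabp1-absent cells.

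Foxd1 was found mainly in Crabp1-high cells. It was at 1 RPKM or more, the level counted as detected, in 21 of 27 Crabp1-high cells (77.8%, exact 95% binomial interval 57.7 to 91.4%) and in 2 of 19 Crabp1-absent cells (10.5%, 1.30 to 33.1%). Its lowest, median and highest levels were 0, 12.4 and 60.1 RPKM in the Crabp1-high cells and 0, 0.163 and 19.1 RPKM in the Crabp1-absent cells. The ranges of the levels overlapped, and the intervals cover counting error over these cells only. The 2 Crabp1-absent cells with Foxd1 were the shallow cell 3, at 19.1 RPKM, and cell 15, at 1.81 RPKM, so that without cell 3 no Crabp1-absent cell exceeded 1.81 RPKM. On the scale of mean log2(RPKM+1), used for all differences here, Foxd1 was 2.93 higher in Crabp1-high cells and 3.12 higher without the shallow cells 3 and 7.

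Six2 went the other way, with more overlap. It was detected in 10 of 27 Crabp1-high cells (37.0%, 19.4 to 57.6%) and in 15 of 19 Crabp1-absent cells (78.9%, 54.4 to 93.9%). Levels ran from 0 through a median of 0.202 to 112 RPKM in the former and from 0 through 17.9 to 117 RPKM in the latter, a difference of -1.85. The highest cells of both classes thus held nearly equal amounts.

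Crym takes either a low or a high range in these cells, and both ranges occurred in both classes. Crym was in its high range, at 10 RPKM or more, in 12 of 27 Crabp1-high cells (44.4%, 25.5 to 64.7%) and in 16 of 19 Crabp1-absent cells (84.2%, 60.4 to 96.6%). Its lowest, median and highest levels were 0.999, 3.70 and 787 RPKM in the Crabp1-high cells and 1.91, 395 and 1480 RPKM in the Crabp1-absent cells, a difference of -3.13. Of the 19 cells in the low range, 15 were thus Crabp1-high, 3 were Crabp1-absent and 1 lay in between.

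**Figure D1:**
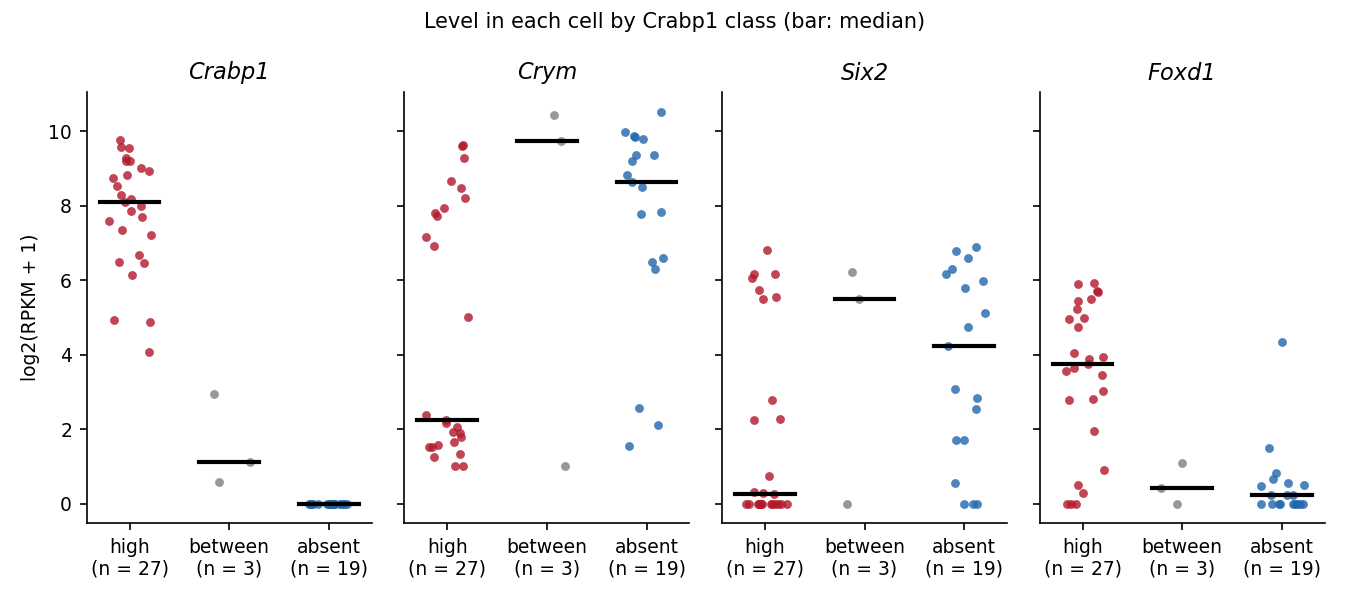
Levels of Crabp1, Crym, Six2 and Foxd1 as log2(RPKM + 1) on the y axis, with 1 point per cell and a bar at the median, for the 27 Crabp1-high cells, the 3 cells in between and the 19 Crabp1-absent cells. Crabp1 was used to make the classes. Crym splits into 2 ranges in both classes, and Foxd1 is at 12.4 RPKM in the median Crabp1-high cell and at 0.163 RPKM in the median Crabp1-absent cell.

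Taking Six2 and Foxd1 together, every cell with Foxd1 and no Six2 had some Crabp1. Of these 15 cells, 14 were Crabp1-high, none was Crabp1-absent (0 of 15, which allows a share of up to 20.0%), and the remaining 1 was cell 14, at 6.68 RPKM. Of the 18 cells with Six2 and no Foxd1, 3 were Crabp1-high, 13 were Crabp1-absent and 2 lay in between. Cells with both transcription factors stood nearer to the first kind, with 7 of 9 Crabp1-high and 2 Crabp1-absent, the latter being cells 3 and 15. The 7 cells with neither gene were 3 Crabp1-high and 4 Crabp1-absent.

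The Crabp1-high cells therefore differed among themselves in Six2 and Foxd1. In the 14 with Foxd1 and no Six2, Crabp1 ran from 15.9 through a median of 399 to 875 RPKM and Foxd1 from 10.0 through 30.4 to 60.1 RPKM. In the 7 with both, Crabp1 ran from 69.9 through 193 to 772 RPKM, Foxd1 from 2.83 through 7.12 to 36.4 RPKM and Six2 from 3.73 through 46.1 to 112 RPKM. Foxd1 and Crabp1 thus had lower medians where Six2 was also present, with ranges that overlapped. Of the 7 cells with both, 6 were in the high range of Crym. Crabp1-high cells had a median of 6086 genes detected in that range, against 5374 in the low range. Doublets were not called, so whether any library held more than 1 cell was not tested. The 3 cells with Six2 and no Foxd1 were cells 48, 6 and 23, with Crabp1 at 28.4, 29.8 and 231 RPKM and Six2 at 71.6, 5.94 and 70.3 RPKM. The first pair stood just inside the Crabp1 threshold. The 3 cells with neither were cells 22, 38 and 45, with Crabp1 at 255, 274 and 751 RPKM, so that high Crabp1 also occurred where Foxd1 was at 0.867 RPKM or less.

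The cells in between resembled different classes. Cell 13 had Six2 at 44.1 RPKM, Foxd1 at 0 and Crym at 1383 RPKM, and cell 51 had them at 73.8, 0.348 and 858 RPKM. Cell 14 had Six2 at 0, Foxd1 at 1.12 RPKM and Crym at 1.01 RPKM, with Pdgfra, a platelet-derived growth factor receptor gene of the stroma, at 153 RPKM. That value of Pdgfra lay above the 131 RPKM of the highest Crabp1-high cell.

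**Figure D2:**
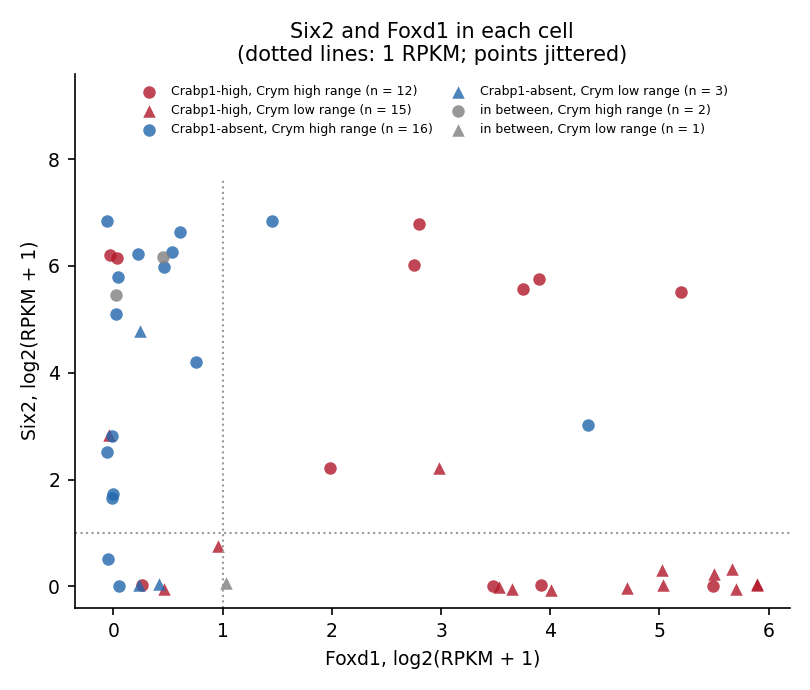
Six2 against Foxd1 in each of the 49 cells, both as log2(RPKM + 1), with dotted lines at 1 RPKM and points jittered slightly. Red, blue and grey mark Crabp1-high, Crabp1-absent and in-between cells, circles the high and triangles the low range of Crym. All 14 Crabp1-high cells with Foxd1 and no Six2 lie along the lower right, where no Crabp1-absent cell is.

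Since Crym itself differed between the classes, the comparison was repeated inside each of its ranges. Within the high range, Foxd1 was detected in 9 of 12 Crabp1-high cells (75.0%, 42.8 to 94.5%) and in 2 of 16 Crabp1-absent cells (12.5%, 1.55 to 38.3%), a difference of 2.26. Six2 was detected in 8 of 12 (66.7%) and in 14 of 16 cells (87.5%), a difference of -0.45. Inside this range, Foxd1 thus kept most of the 2.93 seen in all cells, and Six2 a small part of the -1.85. In the low range only 3 cells were Crabp1-absent: cell 8 with Six2 at 25.9 RPKM, cell 27 with the endothelial genes, and cell 39, with Pdgfra at 45.1 RPKM and Cxcl12 at 133 RPKM. None of the 3 had Foxd1, against 12 of 15 Crabp1-high cells. Among Crabp1-high cells, Crabp1 itself had a median of 170 RPKM in the high range of Crym (15.9 to 516) and 431 RPKM in the low range (29.8 to 875).

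Over the 13092 other genes of the table, 1240 (9.47%) were at least 1 log2 unit higher in Crabp1-high cells and 283 (2.16%) at least 1 log2 unit lower, which is what "called" means below. The median difference over all genes was 0.16. Without the shallow cells 3 and 7 the counts were 1302 and 311, and without cells 25 and 27 they were 1200 and 326. No gene other than Crabp1 (0 of 13092) separated the classes without overlap. Higher calls made up 81.4% of the calls in all cells and 56.0% among the 7 Crabp1-high and 9 Crabp1-absent cells with 4500 to 5500 genes detected, where 1810 genes were higher and 1420 lower and the median difference was 0.00. The part of general detection in the single differences below was not tested further.

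The 2 largest differences towards Crabp1-high cells were those of Anxa2 and Lpar1. Anxa2, which encodes a calcium-dependent phospholipid binding protein, was at 2.66 to 589 RPKM with a median of 181 RPKM in Crabp1-high cells and at 0 to 449 RPKM with a median of 0.395 RPKM in Crabp1-absent cells. It was detected in 27 of 27 against 8 of 19 cells, a difference of 5.10. Later counts in this form are likewise out of 27 Crabp1-high and 19 Crabp1-absent cells. Lpar1, a receptor gene for lysophosphatidic acid, ran from 0.485 through 151 to 391 RPKM against 0 through 0.363 to 67.8 RPKM and was detected in 26 against 4 cells, a difference of 5.10 as well. For both genes every Crabp1-high cell lay above the median Crabp1-absent cell, and some Crabp1-absent cells were high too. Lgals1, the gene of the secreted lectin galectin-1, was detected in every cell of both classes, but at a median of 384 RPKM (69.0 to 1704) against 23.4 RPKM (2.16 to 519), a difference of 3.95. Its difference was one of level and not of detection.

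Transcription regulators stood beside them. Nfib, a nuclear factor I gene, ran from 0.169 through a median of 43.4 to 138 RPKM in Crabp1-high cells and from 0 through 0.295 to 19.0 RPKM in Crabp1-absent cells. It was detected in 26 against 6 cells, a difference of 4.16, and 1 Crabp1-high cell lacked it. Ldb2, which encodes a cofactor of LIM-domain proteins, was 4.51 higher (25 against 4 cells), and the ETS factor gene Fli1 was 3.75 higher (25 against 4 cells). Ldb2 overlaps Gm3364, which was 0.45 higher, and reads of overlapping genes cannot be told apart without strand.

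The remaining large differences covered several functions. Rgs5, a regulator of G protein signalling known from pericytes, was 4.25 higher (21 against 2 cells, up to 1147 RPKM). Dnm3os, a noncoding RNA that hosts microRNAs, was 3.96 higher (24 against 3 cells) and lies inside Dnm3, which differed by -0.20. The chemokine gene Cxcl12 was 3.89 higher, at 7.03 through 90.7 to 266 RPKM against 0 through 2.09 to 133 RPKM. The other members of the 15 largest were Maged2 at 3.58, the cilium transition zone gene B9d1 at 3.57, the glutathione transferase gene Gstm7 at 3.45, and the stroma list genes Col1a1, Aldh1a2 and Col3a1, described with their list.

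Genes lower in Crabp1-high cells differed less and were patchier. After Crym came Aldh9a1, an aldehyde dehydrogenase gene, at -2.79, detected in 7 Crabp1-high and 12 Crabp1-absent cells. Tom1l1, a trafficking adaptor gene, was at -2.74 (8 against 13 cells) and overlaps Cox11, which was at -0.67. Tpm2, a tropomyosin gene, was at -2.65, with medians of 32.2 and 105 RPKM and detection in 19 of 27 against 18 of 19 cells. The homeobox gene Meox2 differed by -2.62 (7 against 13 cells; medians of 0 and 50.2 RPKM). Eya1, a transcriptional coactivator gene needed for metanephric induction, differed by -2.51, running from 0 through 0.629 to 177 RPKM in Crabp1-high cells and from 0.0433 through 31.5 to 281 RPKM in Crabp1-absent cells. Each of these genes was still found in some Crabp1-high cells. The LIM protein gene Crip2 at -2.53, the growth factor binding protein gene Igfbp5 at -2.50, Nampt of nicotinamide adenine dinucleotide synthesis at -2.36, Tox3 at -2.14, the glucose transporter gene Slc2a1 at -2.10, Dync2li1 at -2.09, the protease gene Lgmn at -2.09, the Integrator subunit gene Ints3 at -2.02 and Prkab1 at -1.99 completed the 15. In the low range of Crym, Dync2li1 was at 0.22 and Prkab1 at 0.03.

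**Figure D3:**
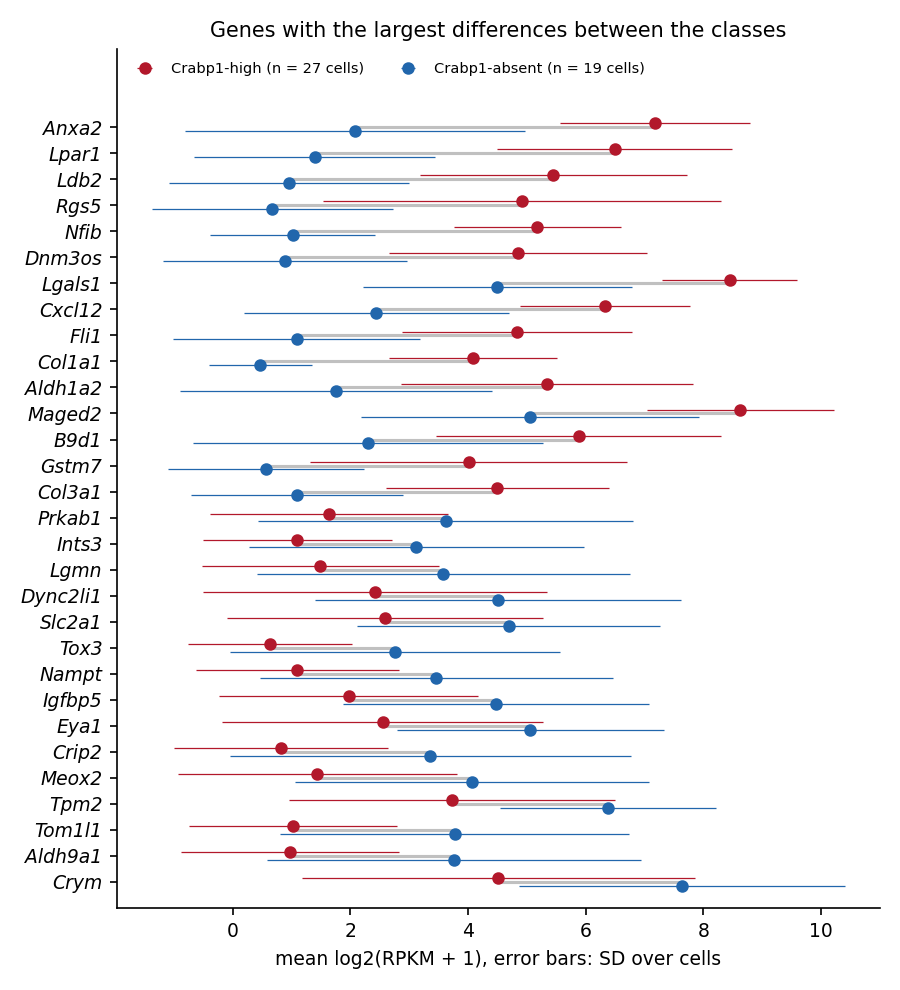
Mean log2(RPKM + 1) on the x axis, with bars of 1 SD over cells, for the 15 genes with the largest difference in each direction (27 Crabp1-high cells in red, 19 Crabp1-absent cells in blue). Crabp1 is left out because it made the classes. The differences run from 5.10 for Anxa2 to -3.13 for Crym.

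Genes whose levels over all 49 cells were among the most like that of Crabp1, by Spearman correlation of RPKM, were Nfib (0.795), Lpar1 (0.789), S100a11 (0.782), Col1a1 (0.757), Ldb2 (0.756), Cxcl12 (0.729) and Lgals1 (0.726). The split itself carries part of these values, since inside the 27 Crabp1-high cells they ran from 0.211 for Col1a1 to 0.685 for S100a11, with 0.591 for Nfib. S100a11 encodes a calcium binding protein and was at a median of 162 RPKM against 45.4 RPKM. The cells share their library preparation and differ in depth, and the correlations are given as a description.

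The renal stroma list was the one that differed most towards Crabp1-high cells. Of its 17 genes in the table, 14 were at least 1 log2 unit higher and none lower, with a median difference of 2.37 against 0.16 for all genes. The shares over all genes were 9.47% higher and 2.16% lower. Aldh1a2 and Rarb are also members of the retinoid list and are described there. A Crabp1-high cell had a median of 12 of the 17 genes (7 to 15), and a Crabp1-absent cell 4 (1 to 13). The 2 Crabp1-absent cells with the most were cell 3, with 13, and cell 39, with 12.

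The fibrillar collagen genes of the list had larger differences than the 2.93 of Foxd1. Col1a1 ran from 0 through 23.7 to 66.3 RPKM in Crabp1-high cells and from 0 through 0 to 7.30 RPKM in Crabp1-absent cells, a difference of 3.62 (26 against 4 cells). Col3a1 was 3.42 higher and Col1a2 3.28 higher, each detected in 24 against 3 cells. Pdgfra ran from 0 through 18.4 to 131 RPKM against 0 through 0.0565 to 45.1 RPKM and was 3.36 higher (23 against 2 cells), and the related receptor gene Pdgfrb was 1.73 higher (16 against 3 cells). The Crabp1-absent class thus held few cells with each of these genes. Ecm1, an extracellular matrix protein gene, was detected in 15 Crabp1-high cells and in no Crabp1-absent cell (0 of 19, which allows a share of up to 15.8%), a difference of 2.66.

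Among the regulators of the stroma list, the Wnt antagonist gene Sfrp1 was 2.37 higher (19 against 2 cells), the giant cadherin gene Fat4 was 1.84 higher (24 against 9 cells), and the T-box gene Tbx18 was 1.60 higher (12 against 5 cells). The homeobox gene Meis1 was detected in all cells and was 1.05 higher, with medians of 195 and 102 RPKM. Ntn1, a guidance factor gene, at 0.84, and the proteoglycan genes Dcn at 0.08 and Lum at -0.10 did not reach 1 log2 unit and were detected in 7, 4 and 2 Crabp1-high cells.

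The nephron progenitor list moved less. Of its 16 genes, 6 were at least 1 log2 unit lower in Crabp1-high cells and none higher, against 2.16% and 9.47% of all genes. The list median was -0.42. That median was -0.81 with only genes detected in 10 or more cells and -0.83 with a pseudocount of 0.1. Beside Crym, Eya1 and Six2 the lower genes were the transcription factor gene Osr1 at -1.87 (11 of 27 against 11 of 19 cells, medians of 0 and 13.8 RPKM), the proteoglycan gene Spock2 at -1.65 (9 of 27 against 14 of 19 cells) and the homeobox gene Meox1 at -1.14 (14 of 27 against 13 of 19 cells). In the low range of Crym, Meox1 stood at 1.82 and Eya1 at 0.03. The other genes of the list did not reach 1 log2 unit and ran from -0.81 to 0.49. Wt1 and Sall1, transcription factor genes required for early kidney development, differed by -0.13 and 0.13, with medians of 42.9 against 45.9 RPKM and of 35.4 against 32.8 RPKM. Gdnf, whose product attracts the ureteric bud, differed by -0.33 (9 of 27 against 7 of 19 cells), Cited1 by -0.43 (5 of 27 against 5 of 19 cells), the integrin gene Itga8 by -0.81 (10 of 27 against 13 of 19 cells), Pax2 by -0.22, Uncx by -0.42, Fgf20 by 0.32 and Tmem100 by 0.49. A Crabp1-high cell had a median of 5 of these 16 genes (2 to 12), and a Crabp1-absent cell 9 (1 to 12).

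Inside the high range of Crym the background was 13.6% of genes higher and 2.38% lower. There, 11 of the 17 stroma genes were at least 1 log2 unit higher and none lower, with a median of 1.93. Col1a1 was 3.31 higher, Cxcl12 3.10, Col1a2 2.83, Col3a1 2.78, Pdgfra 2.71, Ecm1 2.38, Aldh1a2 2.36, Sfrp1 1.93, Tbx18 1.71 and Fat4 1.48. Of the nephron progenitor genes, 2 were lower, Eya1 at -1.26 and Meox1 at -1.41, and 1 was higher, Tmem100 at 1.07, with a median of -0.03. That median counts Crym, whose own difference is limited by choosing the cells on it. Inside this range the stroma genes therefore kept most of their difference. Of the 16 progenitor genes, 13 stayed within 1 log2 unit, from -0.99 for Osr1 to 0.81 for Cited1. Crym itself still differed by -0.65 there, and general detection differed as well, with medians of 6086 against 4901 genes. Anxa2, Lpar1, Rgs5 and Nfib were 5.42, 4.58, 4.52 and 4.13 higher, and Tom1l1, Igfbp5 and Aldh9a1 were at -3.30, -2.72 and -2.56. The nuclear factor I gene Nfia joined Nfib there, at 1.69 to 142 RPKM in the 12 Crabp1-high cells and detected in 1 of 16 Crabp1-absent cells, a difference of 3.44.

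Inside the low range of Crym, where only cells 8, 27 and 39 were Crabp1-absent, the background was 20.4% of genes higher and 14.2% lower, and the values of 41 genes (0.313%) did not overlap between the classes. There 13 of the 17 stroma genes were called higher and 2 lower, the proteoglycan genes Dcn at -1.99 and Lum at -2.06, with a median of 2.24. Aldh1a2 was 5.90 higher, the largest of the stroma list, and was at 0.532 RPKM or less in all 3 Crabp1-absent cells. All 8 endothelial genes, which cell 27 held, were called lower there.

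**Figure D4:**
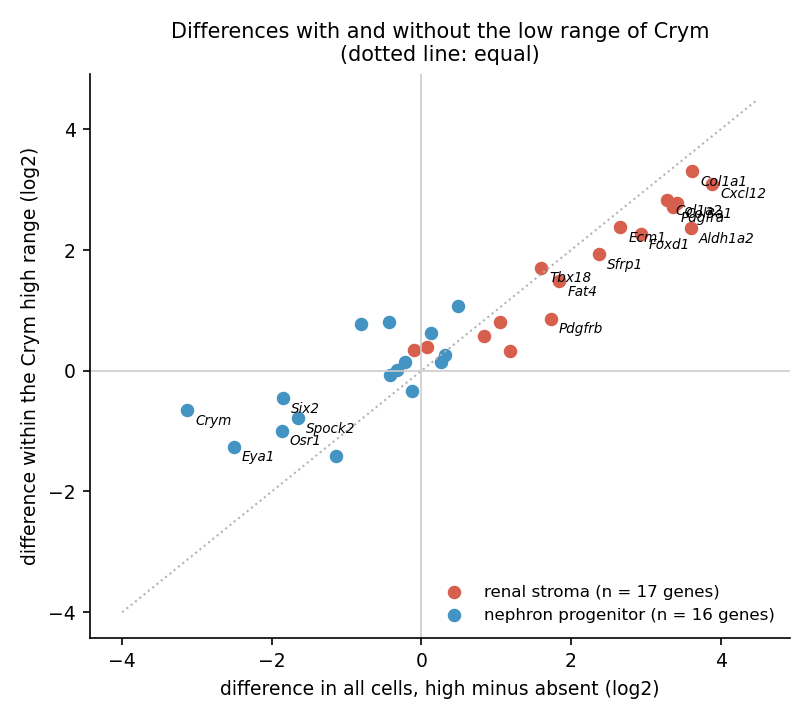
Difference in mean log2(RPKM + 1), Crabp1-high minus Crabp1-absent, in all cells (x axis, 27 against 19) and in cells with Crym at 10 RPKM or more (y axis, 12 against 16), for the renal stroma genes in orange and the nephron progenitor genes in blue. The dotted line marks equal values. Stroma genes such as Col1a1 (3.62 and 3.31) stay near the line, while Six2 (-1.85 and -0.45) lies nearer to 0 on the y axis. Crym (-3.13 and -0.65) does so too, but its difference on the y axis is limited by choosing the cells on Crym.

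Of the 16 retinoid genes other than Crabp1 in the table, 4 were at least 1 log2 unit higher in Crabp1-high cells and none lower, with a median of 0.21, or 0.53 with only genes detected in 10 or more cells. The background over all genes was 9.47% higher and 2.16% lower. In synthesis and uptake, the retinaldehyde dehydrogenase gene Aldh1a2 ran from 0.257 through 50.2 to 325 RPKM in Crabp1-high cells and from 0 through 0.346 to 214 RPKM in Crabp1-absent cells, a difference of 3.60 (24 against 6 cells). Its range in Crabp1-absent cells reached 214 RPKM in cell 28 and 196 RPKM in cell 4, so the classes overlapped. Stra6, which encodes the membrane receptor for retinol binding protein, was 1.64 higher (18 against 5 cells; medians of 10.9 and 0 RPKM). Rdh10, the retinol dehydrogenase that acts before Aldh1a2, was at -0.85, with medians of 15.4 and 31.5 RPKM. The other dehydrogenases Aldh1a1 and Aldh1a3 were each detected in 1 Crabp1-high cell, and in 0 and 1 Crabp1-absent cells.

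The other cellular retinoic acid binding protein gene was common to both classes. Crabp2 was detected in every cell of both classes, at 39.2 through 330 to 1042 RPKM in Crabp1-high cells and 1.17 through 235 to 870 RPKM in Crabp1-absent cells, a difference of 0.88. Cells without Crabp1 therefore still held Crabp2, at a lower median and with overlapping ranges, and cell 36 was the lowest at 1.17 RPKM. Inside the Crabp1-high cells the levels of Crabp2 and Crabp1 rose together, with a Spearman correlation of 0.651. Over all cells that correlation was 0.377. Among Crabp1-high cells, medians in the high and low range of Crym were 170 and 431 RPKM for Crabp1 and 238 and 409 RPKM for Crabp2. The part of this contrast in the correlation was not tested. The fatty acid binding protein gene Fabp5, whose product can also carry retinoic acid, differed by 0.24, with medians of 109 and 173 RPKM.

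In turnover, Dhrs3, a reductase gene whose product returns retinaldehyde to retinol, was abundant in both classes and 1.32 higher in Crabp1-high cells, with 137 through 582 to 1556 RPKM against 0.632 through 399 to 1467 RPKM. The retinoic acid hydroxylase gene Cyp26b1 was detected in 1 cell of each class, and Rdh11 differed by -0.42. Among receptors, Rarb, itself a known target of retinoic acid, was 1.19 higher, at 0.212 through 2.83 to 121 RPKM against 0 through 0.249 to 72.4 RPKM (17 against 6 cells). Rarg was detected in 10 Crabp1-high cells, at up to 17.7 RPKM, and in no Crabp1-absent cell (0 of 19), a difference of 0.82. Rara at 0.06, Rxra at 0.20 and Rxrb at 0.10 were detected in few cells of either class. Inside the high range of Crym, 2 of the 16 retinoid genes were called higher and none lower, with a median of 0.25. Of all genes, 13.6% were higher there and 2.38% lower, so the share of higher calls was near that of all genes. The 2 called were Aldh1a2 at 2.36 and Stra6 at 1.96, while Dhrs3 was at 0.73 and Rarb at 0.33.

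Mesenchymal transcription factor genes were often higher in Crabp1-high cells, 13 of 29 in the table, with 1 lower, Meox2, and a median of 0.98. Over all genes, 9.47% were higher and 2.16% lower. The early B-cell factor genes Ebf1 at 2.94 (20 against 3 cells), Ebf2 at 1.82 (11 against 1) and Ebf3 at 1.81 (13 against 0) were all among them. Snai2, a regulator of epithelial to mesenchymal transition, was at 2.68 (21 against 4), the orphan receptor gene Nr2f1 at 2.62 (27 against 15), and the forkhead gene Foxp2 at 2.38 (23 against 2). Twist1, at 1.37, and Twist2, at 1.21, were detected in 11 and 9 Crabp1-high cells and listed at 0 in every Crabp1-absent cell. Tcf21, a transcription factor gene of kidney mesenchyme and stroma, at 1.06, varied widely in both classes, at up to 640 RPKM and 954 RPKM. Zeb2 at 1.11, Gata6 at 1.10 and Tshz3 at 1.03 were also higher, and in the low range of Crym Zeb2 was at -0.57 and Tshz3 at -0.63.

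Extracellular matrix genes outside the stroma list were mixed, with 12 of 43 higher, 5 lower and a median of 0.36. The shares over all genes were 9.47% higher and 2.16% lower. Fibronectin, Fn1, was 3.15 higher, at 0.635 through 39.4 to 136 RPKM against 0 through 0.792 to 25.9 RPKM. Efemp1, a fibulin family gene, was 2.76 higher (13 against 1 cells), the collagen genes Col9a1 and Col5a2 were 2.45 and 2.13 higher, and the fibrillin gene Fbn2 was 1.87 higher and detected in every Crabp1-high cell. Lower were Igfbp5, the hyaluronan synthase gene Has2 at -1.37, the basement membrane collagen gene Col4a2 at -1.25, Thbs1 at -1.14 and Npnt at -1.01. The other higher members were Efemp2 at 1.46, the growth factor binding protein gene Igfbp4 at 1.43, Mfap2 at 1.34, Bgn at 1.27, Fbln1 at 1.09, the laminin gene Lamb1 at 1.06 and Fbln5 at 1.02. The direction turned in subsets of cells for some of these genes. Inside the high range of Crym Has2 was at 0.60, and inside the low range Igfbp4 was at -2.27, Bgn at -0.36 and Npnt at 0.10. Igfbp4 was at -0.11 among cells with 4500 to 5500 genes detected, and Efemp2 at -0.25 among cells with fewer than 25 of the G2/M genes described below.

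Of 55 signalling genes, 8 were higher and 3 lower, with a median of 0.15, near that of all genes. The background over all genes was 9.47% higher and 2.16% lower. The receptor tyrosine kinase gene Kit was 2.52 higher (21 against 3 cells; medians of 8.23 and 0.347 RPKM), the ligand gene Tgfb2 was 1.99 higher (19 against 6) and the guidance ligand gene Slit3 was 1.50 higher (15 against 1). Gli3, a mediator of hedgehog signalling, was 1.41 higher, Angpt1 1.29, the R-spondin receptor gene Lgr4 1.26, Wnt5a 1.23 and the growth factor gene Igf2 1.18. On the lower side stood Gfra1, the co-receptor for Gdnf, at -1.42, Rspo1 at -1.24 and the Slit receptor gene Robo2 at -1.09, the last of which was at 0.31 inside the high range of Crym. Wnt5a was at -0.16 inside the low range.

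Mural and contractile genes went both ways, with 4 of 12 higher (Rgs5, the calponin gene Cnn2 at 2.96, Tpm1 at 2.94 and Myl9 at 2.01) and 2 lower (Tpm2, and the intermediate filament gene Des at -1.05, which was at 0.05 inside the high range of Crym). Over all genes, 9.47% were higher and 2.16% lower. Tpm1 and Tpm2, both tropomyosin genes, stood on opposite sides, Tpm1 with 1.02 through 50.9 to 212 RPKM against 0 through 3.84 to 35.5 RPKM. The summed level of the list ran from 31.8 through 380 to 2142 RPKM in Crabp1-high cells and from 61.1 through 198 to 1421 RPKM in Crabp1-absent cells, with wide overlap. Acta2 and Tagln, defining genes of smooth muscle, were detected in 1 and 4 Crabp1-high cells and in no Crabp1-absent cell.

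Hox genes are transcription factor genes of axial patterning. None of 10 genes of groups 9 to 11 was called, beside 9.47% of all genes called higher and 2.16% lower. The median of these 10 was 0.15, and Hoxa10 was detected in every cell of both classes with a difference of 0.04. Of 17 genes of groups 3 to 8, 1 was called, Hoxd8 at 1.32, with a median of 0.48. More were called inside the high range of Crym, where 13.6% of all genes were higher: 1 of the 10, Hoxd10 at 1.45, and 6 of the 17, with medians of 0.25 and 0.56. Hoxd8 was at -0.71 inside the low range.

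Markers of other cell types were found in a minority of cells, apart from some neural genes. Of 13 ureteric bud genes, 1 was called, Gata3 at 1.68 (10 against 0 cells), and none of 8 endothelial, 3 macrophage, 1 erythroid and 5 neural genes was called. The background over all genes was 9.47% called higher and 2.16% lower. The summed ureteric bud level ran from 0 through 1.19 to 898 RPKM in Crabp1-high cells, highest in cell 25, and from 0 through 0.179 to 163 RPKM in Crabp1-absent cells. The summed endothelial and macrophage levels had medians of 0 in both classes. The neural sum ran from 0.242 through 3.17 to 279 RPKM in Crabp1-high cells and from 0.146 through 19.8 to 112 RPKM in Crabp1-absent cells, a higher median in the latter with overlapping ranges. Within it, the neurotrophin receptor gene Ngfr was detected in 10 of 27 against 10 of 19 cells. The neuronal RNA binding protein gene Elavl4 was detected in 10 of 27 against 12 of 19 cells. The part of these genes in the comparison was not tested. Of the early nephron list of 8 genes, the cyclin gene Ccnd1 was called, at 1.17.

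Cell cycle genes were more often detected in Crabp1-high cells. Of 50 G2/M genes, 18 were called higher and none lower, with a median of 0.80, and of 33 G1/S genes 6 were called higher and none lower, with a median of 0.52. The shares over all genes were 9.47% higher and 2.16% lower. A Crabp1-high cell had a median of 39 of the 50 G2/M genes (14 to 50) and a Crabp1-absent cell 21 (6 to 50), so both classes spanned nearly the whole range. The mitotic kinase gene Cdk1 was 2.09 higher, Ube2c 1.74, Birc5 1.60 and Top2a 1.41, and of the G1/S genes Gins2 was 2.22 and Tipin 2.20 higher. The direction did not hold at like detection: among cells with 4500 to 5500 genes detected, the G2/M median was -0.47 and Cdk1 stood at -0.82. Inside the high range of Crym, by contrast, 29 of 50 G2/M and 15 of 33 G1/S genes were called higher, with medians of 1.12 and 0.94. The share of all genes called higher in that range was 13.6%. Detection differed more there too, with medians of 6086 against 4901 genes and of 40 against 21 G2/M genes per cell, and its part in the differences of the stroma list inside that range was not tested. In the window of 4500 to 5500 genes the stroma list kept its difference, with a median of 2.58, and the nephron progenitor list was at -0.99. High Crym was found there in 28.6% of the 7 Crabp1-high and 77.8% of the 9 Crabp1-absent cells. The window therefore does not compare cells of like Crym. With only the cells that had fewer than 25 G2/M genes, 7 Crabp1-high and 12 Crabp1-absent, Foxd1 was found in all of the former (100%) and 1 of the latter (8.33%). Six2 and high Crym were each found in 14.3% of these 7 cells, whose make-up thus differed from that of the whole class.

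**Figure D5:**
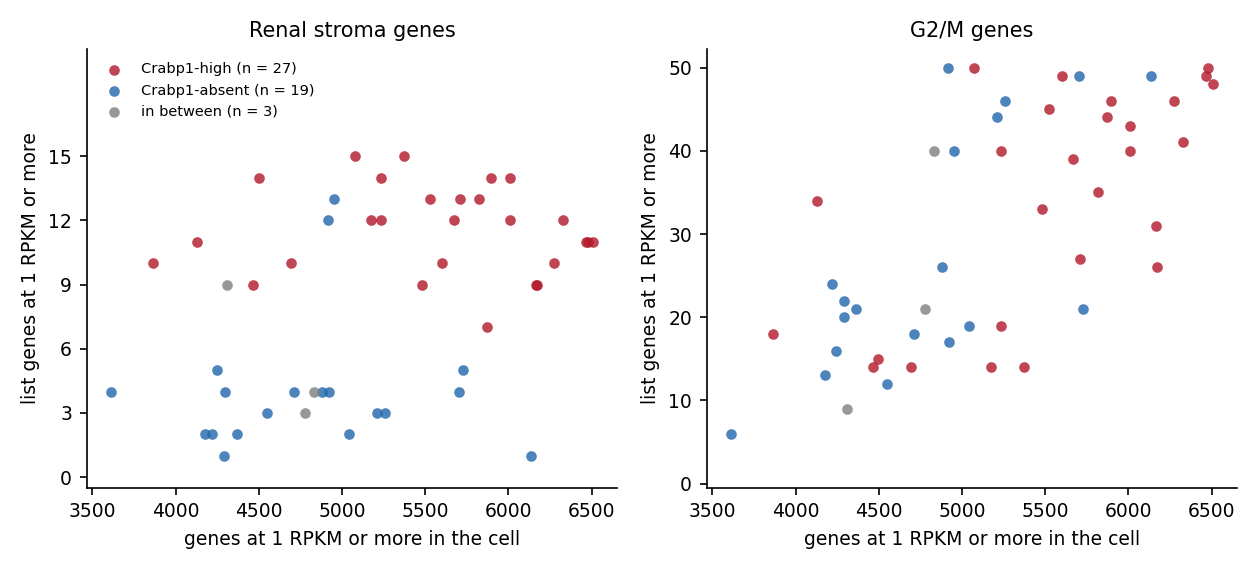
Number of renal stroma genes (left, of 17) and of G2/M genes (right, of 50) at 1 RPKM or more in each cell, against the number of all genes at 1 RPKM or more in that cell, with red for the 27 Crabp1-high, blue for the 19 Crabp1-absent and grey for the 3 in-between cells. Crabp1-high cells have 7 to 15 stroma genes at every level of general detection. The G2/M counts of both classes extend up to 50.

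Of 15 genes that respond to stress and to cell dissociation, 3 were called higher, Btg2 at 2.06, Ier2 at 1.36 and Fos at 1.04, with a list median of 0.16. Over all genes, 9.47% were called higher and 2.16% lower. Among cells with 4500 to 5500 genes detected Ier2 was at -1.30 and Fos at -0.32, and in the low range of Crym Fos was at -0.63. Of 15 housekeeping genes, B2m at 1.60 and Polr2a at 1.16 were called higher and Tfrc at -1.14 lower, with a median of 0.09, and Polr2a was at -0.49 in the low range of Crym. The medians of both lists lay at or below the 0.16 of all genes.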

How the data were processed

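RNA of single cells was captured on a microfluidic chip whose chambers were inspected under a microscope, amplified with SMARTer chemistry and sequenced from Nextera XT libraries, per the labels' protocols. This keeps no strand and no molecular identifiers. Per the file headers, the authors computed the deposited values as RPKM, not read counts, so no count test was run. The submitters' processing notes list TopHat 1.4.1, DESeq and mm9, without their roles. The read counter, the annotation and the base of the starts (0 or 1) are not given in these sources. All 13093 genes of the table exceed 3 RPKM in at least 1 cell, which was checked on the values, and list members outside it are not analysed here. All columns with a cell's values were used (0 left out).

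Differences are means of log2(RPKM+1), a pseudocount of 1, in Crabp1-high minus Crabp1-absent cells, and understate the change of low genes. Shares carry exact (Clopper-Pearson) 95% intervals, and a share of 0 the limit that 3 cells allow; both cover counting error only. Total reads per cell are unknown; relative depth was estimated from steps between low values. The depth estimate was tried on simulated counts, and the recovery of known differences on values shuffled over cells. No cell was filtered, and doublets were not called in so small a set. The members and lists were chosen with earlier results of these data known. Named were Crabp1, Six2, Foxd1 and Crym, members of the retinoid, nephron progenitor and stroma lists and called members or examples of the others, the 15 largest differences each way among genes detected in at least 10 cells, and the 8 genes most like Crabp1. Nfia was named after its values were seen, and some genes that fall under this rule are not reported here. Python 3.11.15, numpy 2.4.6, pandas 2.3.3 and scipy 1.17.1 were used. The alternatives were other pseudocounts (0.1 and 10), a filter on low values, rescaling, other thresholds, cells left out, and subsets of cells.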

Additional observations from a re-analysis of the deposited data

How the results depend on the processing

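No paired analysis was possible because all cells form 1 group and their numbers only name them. Of 124 named genes past 1 log2 unit, all 124 kept their sign with pseudocounts of 0.1 and 10. They also did so after rescaling each cell by the median of ratios over 1008 genes above 0 in every cell, and without cells 25 and 27. The same held with Crabp1-high set from 1 RPKM or from 100 RPKM, and without cells 3 and 7. For the 15 largest differences each way, the sign without cells 3 and 7 was a condition of being named. The filter to genes detected in 10 or more cells left 121 of these genes. It removes genes and changes no single difference, so it cannot test their signs or sizes. Past 1 log2 unit stayed 124 with 0.1, 54 with 10, 122 after rescaling, 117 without cells 3 and 7, 116 without cells 25 and 27, 109 from 1 RPKM and 118 from 100 RPKM. Fewer of the 124 held in subsets of cells. In the high and low range of Crym, 121 and 106 kept their sign, and 95 and 80 also stayed past 1 log2 unit. With 4500 to 5500 genes detected these counts were 101 and 83, and with fewer than 25 G2/M genes 113 and 95. Counts of genes depend on the pseudocount: with 0.1 they were 2990 higher and 671 lower and the stroma median was 3.99, and with 10 they were 144 and 34 and the median was 0.91. After rescaling, 1146 were higher and 317 lower. The nephron progenitor median of -0.42 was -0.83 with 0.1, -0.21 with 10, -0.81 with the filter, -0.73 with Crabp1-high from 100 RPKM, -0.03 and -0.12 in the high and low range of Crym, -0.99 with 4500 to 5500 genes detected and -1.21 with fewer than 25 G2/M genes. The retinoid median of 0.21 was 0.12 with 10, 0.53 with the filter and 0.00 with 4500 to 5500 genes detected.

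Shares depend on the level that counts as detected. At 0.1 RPKM for Six2 and Foxd1 and 1 RPKM for Crym, Foxd1 was found in 52.6% of Crabp1-absent cells and Crym in 96.3% of Crabp1-high and 100% of Crabp1-absent cells. At 10 RPKM, Six2 was found in 52.6% of Crabp1-absent cells.

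Within the high range of Crym, 1781 genes were higher and 311 lower, Six2 was found in 66.7% of Crabp1-high cells, and Has2 (0.60), Robo2 (0.31) and Des (0.05) reversed. In the low range, with 3 Crabp1-absent cells, 2670 were higher and 1858 lower (59.0% higher), the retinoid median was 0.95, Six2 was found in 13.3% of Crabp1-high and 33.3% of Crabp1-absent cells, and Foxd1 in 0% of the latter. There Eya1 (0.03), Dync2li1 (0.22), Prkab1 (0.03), Meox1 (1.82), Tshz3 (-0.63), Zeb2 (-0.57), Npnt (0.10), Bgn (-0.36), Igfbp4 (-2.27), Wnt5a (-0.16), Hoxd8 (-0.71), Nusap1 (-0.47), Tacc3 (-0.77), Bub1 (-0.07), Cdca2 (-0.15), Aurka (-0.79), Fos (-0.63) and Polr2a (-0.49) reversed. The small number of cells limits these values.

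Both remaining alternatives were chosen after seeing the data. With only cells that had 4500 to 5500 genes detected, 1810 genes were higher and 1420 lower. Foxd1 was found in 100% of Crabp1-high and 22.2% of Crabp1-absent cells. In this subset Igfbp4 (-0.11), Tyms (-0.51), Rpa2 (-0.52), Gmnn (-0.50), Tipin (-1.15), Cdk1 (-0.82), Nusap1 (-0.15), Ube2c (-0.07), Birc5 (-0.79), Tpx2 (-0.57), Top2a (-0.53), Tacc3 (-0.22), Aurkb (-1.58), Bub1 (-1.31), Kif11 (-1.38), Tubb4b (-1.56), Cdca2 (-0.35), Hmmr (-0.44), Aurka (-0.98), Cenpe (-0.07), Cenpa (-0.37), Fos (-0.32) and Ier2 (-1.30) reversed. With only cells that had fewer than 25 G2/M genes, 1843 were higher and 1310 lower (58.5% higher). Foxd1 was found in 100%, Six2 in 14.3% and high Crym in 14.3% of Crabp1-high cells. In Crabp1-absent cells the shares were 8.33%, 75.0% and 83.3%. There Efemp2 (-0.25), Pola1 (-0.48), Ube2c (-0.24), Birc5 (-0.06), Top2a (-0.56), Nuf2 (-0.71), Bub1 (-0.87), Hmmr (-0.01), Aurka (-0.43), Cenpe (-0.69) and Ier2 (-0.36) reversed. The cause of these changes was not tested beyond the choice of cells.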
